A study of Mus musculus with 18 samples.

Results

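The 36 genes described here encode the ephrin, Slit and netrin guidance systems: 9 EphA receptors, 5 EphB receptors, 5 ephrin-A ligands, 3 ephrin-B ligands, 3 Slit ligands, 3 Robo receptors, 2 netrins, 2 netrin-G genes and 4 netrin receptors. They were taken by symbol from a list of family members, out of 38250 features in the count tables, and a symbol with several identifiers was read from the one with most reads. All 36 were found, and all 36 passed the filter on low counts. RNA was measured in 3 kinds of cell, sorted out of lateral cortex from C57BL/6 mouse embryos at embryonic day 14.5. All fractions came from the same kind of embryo, labelled Btg2GFP/Tubb3GFP, so each group carries both reporters. Sample titles, in contrast, give RFP as the Btg2 colour, and the colours below follow the titles. The group PP holds red-negative cells, labelled Proliferating Progenitors and Btg2 negative. The group DP holds red-positive cells, labelled Differentiating Progenitors and Btg2 positive. The group Neuron holds green cells, labelled as neurons and Tubb3 positive. Btg2 is a gene that slows division and is switched on in progenitors about to make neurons, and Tubb3 is a neuronal tubulin. Each library came from a pool of more than 3 embryos of different litters, after meninges and ganglionic eminences had been removed. There were 9 libraries, 3 per group, each sequenced in 2 runs, which were added (18 samples in the labels). A library held 34337209 to 55935128 counts.

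Eph receptors are receptor tyrosine kinases that bind ephrins on neighbouring cells. Ephrin-A ligands are held in the membrane by a lipid anchor and ephrin-B ligands span it, so that ligand-bearing cells can be signalled to in return. In the developing cortex these proteins are known for sorting cells, for regulating progenitors and for the topographic mapping of axons. Slits are large secreted ligands, and Robo receptors read them, mostly as repulsion of growth cones and migrating neurons. Netrins are laminin-related proteins. Netrin-1 attracts axons through Dcc and repels them through Unc5 receptors, while the netrin-Gs are anchored in the membrane and bind synaptic adhesion proteins of the Lrrc4 family in place of Dcc.

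The fractions were checked with lists of cell type markers, as the summed level of each list in a library. Levels throughout are CPM (the counts of a gene relative to the library total), scaled between libraries by the TMM method. The 8 radial glia markers summed to 5403 to 6319 CPM in PP, 2494 to 3625 in DP and 298 to 380 in Neuron. The 4 intermediate progenitor markers, Btg2 among them, summed to 1166 to 1195, 2489 to 3548 and 468 to 522. The 7 neuronal markers, Tubb3 among them, summed to 404 to 589, 2114 to 2794 and 9258 to 10115. By these sums, radial glia markers were highest in PP, intermediate progenitor markers in DP and neuronal markers in Neuron. Of the single markers, 7 of 8 radial glia markers fell in the first step, and 6 of 7 neuronal markers rose in the second. The sums for markers of other neuron types were also highest in Neuron. The 5 Cajal-Retzius markers summed to 809 to 926 CPM there against 54.8 to 62.7 in DP and 4.07 to 7.49 in PP. Most of this sum was Reln, at 812 CPM on average in Neuron, and 4 of the 5 markers rose in the second step while Ebf2 fell. For 7 markers of ventral progenitors and interneurons the sums were 421 to 454, 28.9 to 154.96 and 5.24 to 52.2. Of these 7 markers, 3 rose in the first step, 5 rose in the second, and 7 were higher in Neuron than in PP. The part of these cells in the levels below was not tested. In sorted pools such as these, fewer cells of a type and less RNA per cell cannot be told apart.

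The comparisons follow the labelled order of differentiation: DP against PP is called here the first step, and Neuron against DP the second step. Both share the DP libraries, which enter the steps with opposite sign, so the errors of the steps are not independent. Their values are set side by side, and no correlation between the steps was computed. A further test asked for each gene whether its log2 change in the second step differed from that in the first. Adjusted p-values come from the quasi-likelihood test of edgeR, adjusted by the Benjamini-Hochberg method over the 18627 features tested, errors of log2 changes are standard errors, and a gene is said to rise or fall where that p was below 0.05.

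In the first step 19 of the 36 genes rose, 8 fell and 9 were not called. Over all features, 41.4% were called in this comparison, 21.3% as higher and 20.2% as lower. At 2-fold or more, 13 members rose and 3 fell, where the share over all features was 7.54% higher and 6.40% lower. In the second step 21 members rose, 11 fell and 4 were not called, with 67.3% of all features called (33.1% higher, 34.2% lower). From PP to Neuron 23 rose, 11 fell and 2 were not called, with 75.3% of all features called (36.7% higher, 38.6% lower). At 2-fold or more, 15 rose and 9 fell in the second step (15.6% and 17.9% of all features), and 18 rose and 8 fell from PP to Neuron (20.0% and 22.7%). The members' median log2 change was 0.33 in the first step, 0.43 in the second and 0.92 from PP to Neuron, and the median over all features was -0.0165, -0.0411 and -0.0419.

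**Figure D1:**
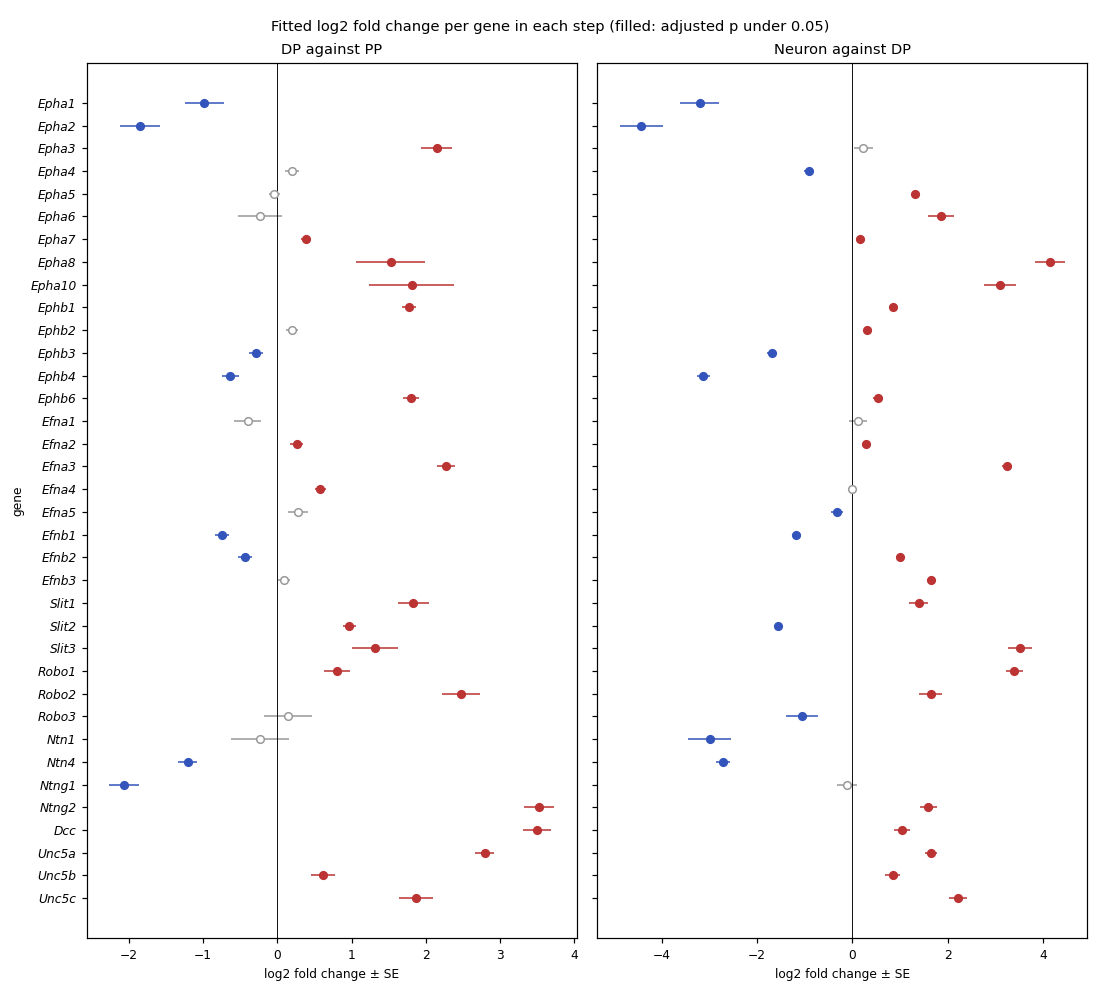
Log2 fold change of each of the 36 genes in the first step (DP against PP) and in the second step (Neuron against DP), from edgeR's fit, with bars of 1 standard error and filled points where the adjusted p was below 0.05 (red higher, blue lower). Genes are ordered by role, with the Slit genes and the netrin receptors to the right of 0 in the first step and the netrins to the left in the second.

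Read together, the steps gave 9 courses. In all, 16 genes rose in both steps, a course that 12.4% of all features took: Epha7, Epha8, Epha10, Ephb1, Ephb6, Efna2, Efna3, Slit1, Slit3, Robo1, Robo2, Ntng2, Dcc, Unc5a, Unc5b and Unc5c. A further 6 fell in both (10.9% of all features): Epha1, Epha2, Ephb3, Ephb4, Efnb1 and Ntn4. Epha5, Epha6, Ephb2 and Efnb3 rose in the second step and were not called in the first (16.2%), and Epha4, Efna5, Robo3 and Ntn1 fell in the second step and were not called in the first (19.0%). Epha3 and Efna4 rose in the first step and were not called in the second (4.50%), and Ntng1 fell in the first and was not called in the second (4.80%). Slit2 rose and then fell (4.37%), Efnb2 fell and then rose (4.49%), and Efna1 was called in neither (23.4%). The difference between the steps was itself past the threshold for 26 members: the second-step change lay above the first for 9 and below it for 17, against 20.5% and 24.9% of all features, or 45.4% in either direction.

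Among the EphA receptors, Epha4 had the highest level per kilobase in PP and DP, and Epha3 and Epha5 changed the most among those with more than 5 CPM in each group. Library values below are in the order L222, L355 and L393 for PP, L223, L356 and L394 for DP, and L224, L357 and L395 for Neuron, and gene positions are in mm9, as the count tables give them. Epha3, a receptor of ephrin-As, (chromosome 16, 63543364 to 63863984) had 87.6, 54.6 and 46.2 CPM in PP, then 242, 322 and 267 in DP, then 379, 288 and 307 in Neuron. The lowest DP library lay well above the highest PP library, while the DP and Neuron libraries overlapped. Epha3 rose 4.42-fold in the first step (log2 2.14 ± 0.21, adjusted p = 1.21e-05), and the second-step change was log2 0.23 ± 0.20, adjusted p = 0.333. The second-step change was below that of the first (log2 -1.92 ± 0.34, adjusted p = 0.000699), and by -2.54 when L222, L223 and L224 were all left out. Library L222, the highest in PP for Epha3, was also the highest PP library for the neuronal and the interneuron markers, at 589 and 52.2 CPM, and the part of these cells was not tested. The same library was the highest of PP for Epha5, Epha7, Efna2, Efna4, Slit1, Slit3, Robo1, Robo2, Ntng2, Dcc, Unc5a and Unc5c. It was also the highest for Epha1, Efnb1, Ntn1, Ntn4 and Ntng1, which were lower in Neuron than in PP. Other PP libraries were highest for Epha8, Epha10, Ephb1, Ephb6, Efna3 and Unc5b, which rose in both steps. L222 was the highest of PP for the radial glia and red blood cell sums too, at 6319 and 15287 CPM.

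Epha5, a receptor of ephrin-As that takes part in mapping axons, (chromosome 5, 84486816 to 84846407) had 220.3, 209 and 192 CPM in PP, then 205, 207 and 191 in DP, then 535, 472 and 484 in Neuron. Its PP and DP libraries covered the same range, and each Neuron library stood above them all. Epha5 rose 2.47-fold in the second step (log2 1.30 ± 0.08, adjusted p = 2.57e-08), after a first-step change of log2 -0.04 ± 0.08, adjusted p = 0.695. The steps differed (log2 1.35 ± 0.13, adjusted p = 7.43e-06). Epha4, which binds ephrins of both classes, had 587 ± 22.3 CPM in PP, 676 ± 28.1 in DP and 358 ± 52.6 in Neuron (mean ± SD, n = 3). Epha4 fell 1.89-fold in the second step (log2 -0.92 ± 0.10, adjusted p = 4.48e-06). Its first-step change was log2 0.20 ± 0.10, adjusted p = 0.109, which became a call when the Neuron library L224 was left out (adjusted p = 0.0286).

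The remaining EphA receptors were less abundant or changed less. Epha7, a receptor whose truncated form is known in neural fold adhesion, rose from 53.6 ± 0.607 CPM in PP to 70.1 ± 3.60 in DP (log2 0.39 ± 0.07, adjusted p = 0.000675). Its second-step rise to 78.6 ± 4.29 was small (log2 0.16 ± 0.07, adjusted p = 0.0443) and lost its call when L222, L355, L223, L394, L224 or L357 was left out in turn (adjusted p from 0.0589 to 0.168). Epha8 (chromosome 4, 136485334 to 136512731) had 0.0537, 0.0641 and 0.226 CPM in PP, then 0.471, 0.232 and 0.362 in DP, then 5.90, 6.83 and 5.90 in Neuron. Nearly all its reads were thus in Neuron, with no overlap between DP and Neuron, and it rose 17.6-fold in the second step (log2 4.14 ± 0.31, adjusted p = 2.14e-07). Its first-step call (log2 1.53 ± 0.47, adjusted p = 0.0209) rested on few reads, 2 to 11 in a PP library, and was lost without L222, L355 or L223 (adjusted p = 0.0646, 0.0799 and 0.0643). Without L393 the first-step log2 change of Epha8 was 2.51.

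Epha10, a receptor without kinase activity, was the least abundant per kilobase in PP, with 0.0372 ± 0.0235 CPM in PP, 0.135 ± 0.0680 in DP and 1.21 ± 0.0955 in Neuron. Epha10 rose in the second step (log2 3.10 ± 0.33, adjusted p = 5.67e-06), and its first-step call (log2 1.81 ± 0.57, adjusted p = 0.0248) rested on 1 to 3 reads in a PP library. That call was lost without L222, L393 or L356 (adjusted p = 0.0695, 0.0916 and 0.196), and without L355 the log2 change was 2.44. Epha6 rose in the second step from 0.465 ± 0.141 to 1.68 ± 0.219 CPM (log2 1.86 ± 0.27, adjusted p = 7.07e-05). Epha2, a receptor best known from epithelia, went the other way and was lower in every DP library than in any PP library and lower again in Neuron. It fell from 4.94 ± 0.216 CPM in PP to 1.38 ± 0.657 in DP (log2 -1.84 ± 0.27, adjusted p = 0.000233) and 0.0627 ± 0.0194 in Neuron (log2 -4.42 ± 0.46, adjusted p = 3.91e-06), where it had 2 or 3 reads in a library. Epha1 fell from 0.887 ± 0.185 to 0.449 ± 0.0967 (log2 -0.98 ± 0.26, adjusted p = 0.0104, adjusted p = 0.0542 without L356) and to 0.0463 ± 0.00545 in Neuron (log2 -3.20 ± 0.41, adjusted p = 2.62e-05). Of its exon length 4.888% is shared with Zyx on the opposite strand, and the sources used here do not give a strand setting for counting.

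The EphB receptors split by direction: Ephb1 and Ephb6 rose in both steps and Ephb3 and Ephb4 fell in both. Ephb1, a receptor of ephrin-Bs that guides retinal axons at the chiasm, (chromosome 9, 101824458 to 102257023) had 17.7, 18.0 and 15.1 CPM in PP, then 62.5, 56.6 and 54.5 in DP, then 102, 112 and 98.9 in Neuron. The groups did not overlap, and the spread within a group was small. Ephb1 rose 3.41-fold in the first step (log2 1.77 ± 0.09, adjusted p = 2.49e-07) and 1.8-fold in the second (log2 0.85 ± 0.09, adjusted p = 3.49e-06), the first change being the greater (log2 -0.92 ± 0.15, adjusted p = 0.000341). Ephb6, a receptor whose kinase domain is inactive, (chromosome 6, 41555481 to 41570508) had 21.0, 19.1 and 21.6 CPM in PP, then 59.0, 81.2 and 74.6 in DP, then 109, 102 and 102 in Neuron. It too rose at each step without overlap, 3.48-fold (log2 1.8 ± 0.11, adjusted p = 4.95e-07) and then 1.46-fold (log2 0.54 ± 0.10, adjusted p = 0.000661), and more in the first (log2 -1.26 ± 0.18, adjusted p = 0.000134).

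Ephb4, the receptor of ephrin-B2 known from veins, (chromosome 5, 137791337 to 137819897) had 81.4, 79.4 and 84.8 CPM in PP, then 64.9, 45.7 and 48.1 in DP, then 6.04, 6.52 and 5.51 in Neuron. Every DP library lay below every PP library, and the Neuron libraries were far below both. Ephb4 fell 1.55-fold in the first step (log2 -0.63 ± 0.12, adjusted p = 0.00128) and 8.76-fold in the second (log2 -3.13 ± 0.13, adjusted p = 2.13e-09). The summed level of 8 endothelial markers was 9.45 CPM in L222, 13.3 in L355 and 28.2 in L393. The radial glia sum was 6319, 6136 and 5403 CPM in these libraries. The part of either kind of cell in Ephb4 was not tested. Ephb3 (chromosome 16, 21204828 to 21223378) had 38.3, 46.9 and 46.9 CPM in PP, then 38.1, 32.7 and 37.8 in DP, then 11.4, 11.0 and 11.5 in Neuron. PP and DP nearly touched, and Neuron stood far below. Ephb3 fell 3.21-fold in the second step (log2 -1.68 ± 0.10, adjusted p = 3.12e-08), and its small first-step fall (log2 -0.29 ± 0.10, adjusted p = 0.032) lost its call without L355, L393 or L356 (adjusted p = 0.118, 0.116 and 0.136). Ephb2, the EphB receptor with the highest level per kilobase in PP, had 279 ± 3.98, 320.4 ± 28.7 and 397 ± 22.8 CPM. It rose in the second step (log2 0.31 ± 0.08, adjusted p = 0.00342), and its first-step change (log2 0.20 ± 0.08, adjusted p = 0.0554) was called when libraries of consecutive numbers were paired (adjusted p = 0.0259) and without L394 (0.0341).

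Of the ephrin-A ligands only Efna3 changed by 2-fold or more. Efna3 (chromosome 3, 89117821 to 89126887) had 1.56, 1.60 and 1.25 CPM in PP, then 7.11, 7.32 and 6.71 in DP, then 72.8, 66.7 and 60.8 in Neuron. Each step separated the libraries completely. Efna3 rose 4.81-fold in the first step (log2 2.26 ± 0.12, adjusted p = 2.95e-07) and 9.47-fold in the second (log2 3.24 ± 0.10, adjusted p = 2.66e-10), and the second change was the greater (log2 0.98 ± 0.19, adjusted p = 0.00131). An antisense gene, Gm15998, covers 14.133% of the exon length of Efna3. Efna4 rose from 21.3 ± 0.765 to 31.8 ± 0.826 CPM in the first step (log2 0.58 ± 0.07, adjusted p = 7.47e-05) and was at 31.4 ± 1.66 in Neuron (log2 -0.02 ± 0.07, adjusted p = 0.842), and 10.507% of its exon length lies under a gene on the opposite strand.

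Efna1, Efna3 and Efna4 lie in a row on chromosome 3, with gaps of 32.8 kb and 10.4 kb, and took 3 different courses. Efna1, a ligand of Epha2, stood at 3.84 ± 0.518, 2.92 ± 0.448 and 3.17 ± 0.561 CPM, with first- and second-step changes of log2 -0.40 ± 0.19, adjusted p = 0.109 and log2 0.12 ± 0.19, adjusted p = 0.594. Efna2 rose slightly in each step (log2 0.26 ± 0.09, adjusted p = 0.0354 and log2 0.28 ± 0.09, adjusted p = 0.0144) from 23.8 ± 1.24 to 28.6 ± 2.50 and 34.8 ± 2.60 CPM. Its first call was lost without L355, L393, L356 or L357 (adjusted p from 0.0521 to 0.148) and its second without L394 or L224 (0.0607 and 0.0633). Efna5, known from the mapping of retinal and thalamic axons, had 8.27 ± 0.916, 10.0 ± 1.57 and 8.01 ± 0.204 CPM. Its second-step fall (log2 -0.32 ± 0.13, adjusted p = 0.0476) lost its call when L222, L356, L394, L224, L357 or L395 was left out in turn (adjusted p from 0.0552 to 0.172). Its first-step change (log2 0.28 ± 0.13, adjusted p = 0.115) was called without L223 (0.0153). The tables list Efna5 under 2 identifiers, the less counted of which covers 59.921% of the exon length of the other.

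Each ephrin-B ligand took a course of its own. Efnb1, a ligand of cortical progenitors, (chromosome X, 96331469 to 96344330) had 712, 693 and 701 CPM in PP, then 476, 399 and 390.0 in DP, then 208, 181 and 169 in Neuron. It was lower at each step, with no overlap between groups. Efnb1 fell 1.67-fold in the first step (log2 -0.74 ± 0.09, adjusted p = 8.46e-05) and 2.27-fold in the second (log2 -1.18 ± 0.10, adjusted p = 4.41e-07). Efnb2, a ligand also known from arteries, (chromosome 8, 8617434 to 8661239) had 544, 579 and 491 CPM in PP, then 404, 429.8 and 365 in DP, then 881, 791 and 731 in Neuron. DP was the lowest group and Neuron the highest, with no overlap between any groups. Efnb2 fell 1.35-fold in the first step (log2 -0.43 ± 0.09, adjusted p = 0.00345) and rose 2.00-fold in the second (log2 1.00 ± 0.09, adjusted p = 1.78e-06), a difference of log2 1.43 ± 0.17, adjusted p = 2.73e-05. Efnb3, the ligand known as a midline barrier to corticospinal axons, (chromosome 11, 69367594 to 69373707) had 45.2, 42.6 and 46.1 CPM in PP, then 43.8, 47.3 and 51.7 in DP, then 136, 157.1 and 151 in Neuron. PP and DP overlapped, and Neuron stood apart. Efnb3 rose 3.11-fold in the second step (log2 1.64 ± 0.08, adjusted p = 6.35e-09) after a change of log2 0.09 ± 0.08, adjusted p = 0.387 in the first (difference log2 1.54 ± 0.14, adjusted p = 4.06e-06).

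**Figure D2:**
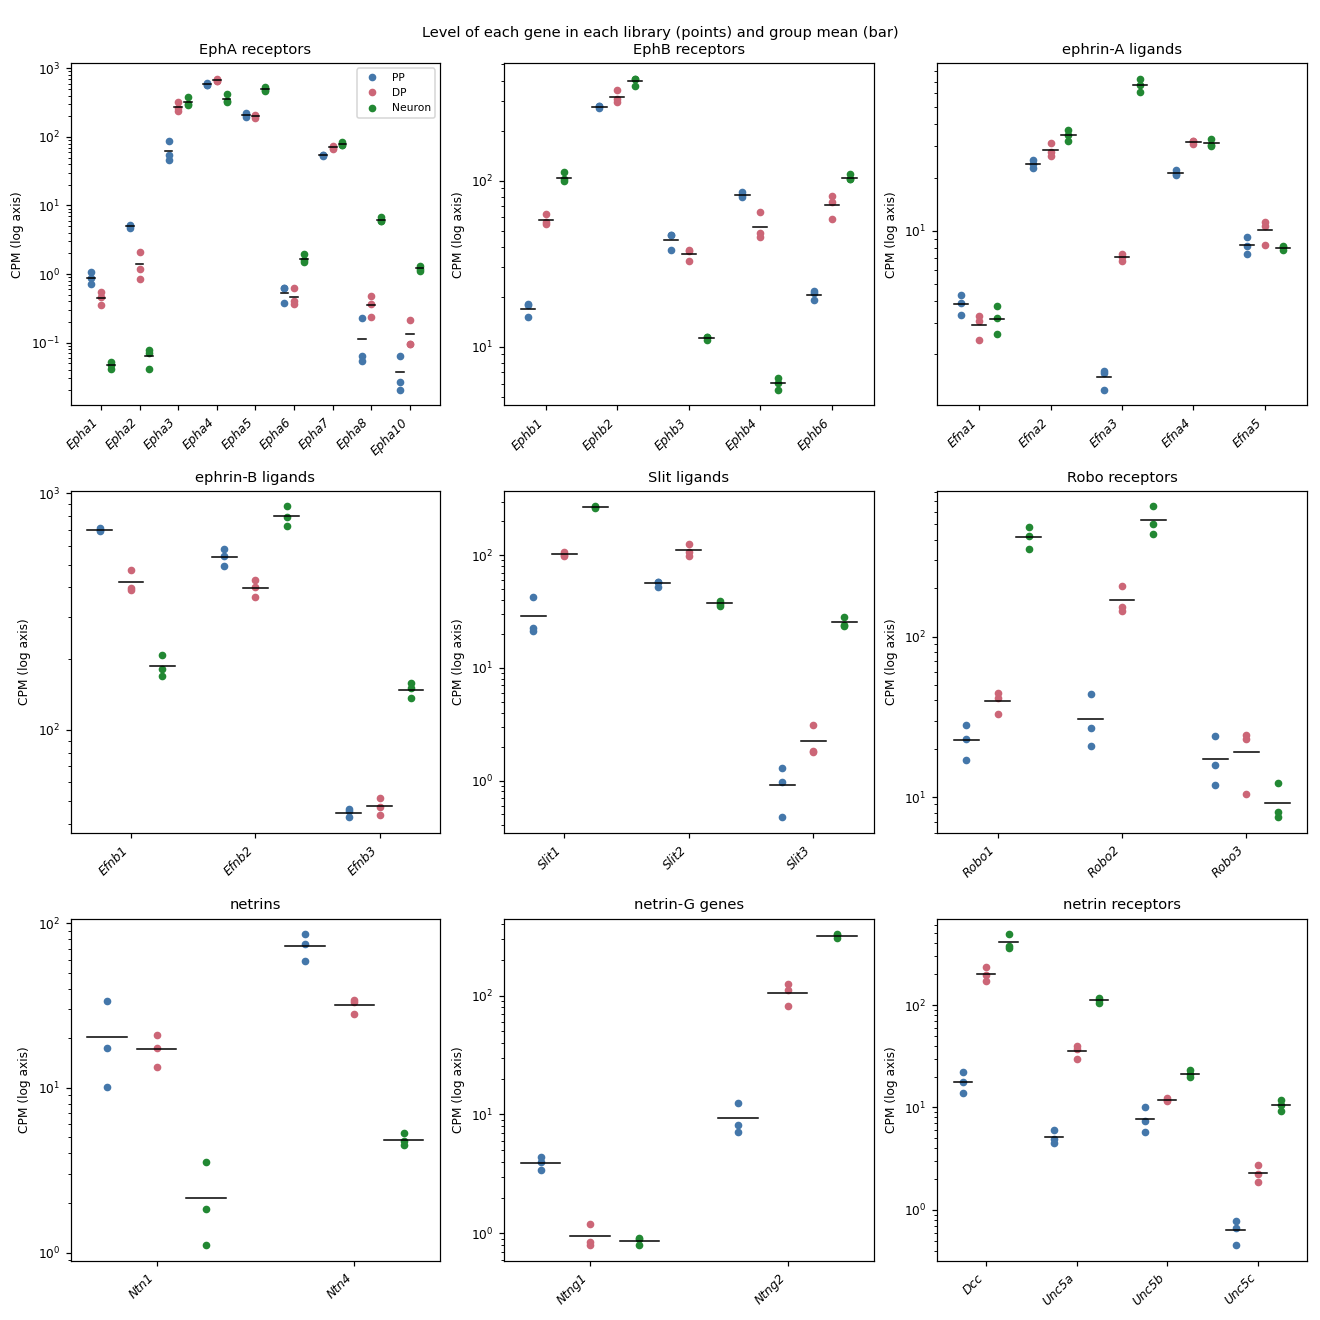
CPM of each of the 36 genes in each of the 9 libraries, on a log axis, 1 panel per role, with points for libraries and bars for the mean of the 3 libraries of a group. Efnb1 falls from PP to Neuron, Efnb2 has its lowest points in DP, Slit2 has its highest in DP, and Epha8 and Epha10 lie near the bottom of the axis in PP.

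The 3 Slit ligands rose together in the first step and parted in the second. Slit1 (chromosome 19, 41674747 to 41818155) had 42.6, 22.6 and 21.1 CPM in PP, then 98.7, 100.2 and 106 in DP, then 266, 272 and 263 in Neuron. Each group lay above the one before it, and L222 was well above the other PP libraries. Slit1 rose 3.55-fold in the first step (log2 1.83 ± 0.21, adjusted p = 3.53e-05) and 2.62-fold in the second (log2 1.39 ± 0.20, adjusted p = 7.14e-05). The difference between the steps was log2 -0.44 ± 0.34, adjusted p = 0.334, and -0.83 (adjusted p = 0.000126) without L222. Slit2 (chromosome 5, 48374394 to 48697521) had 52.5, 58.1 and 58.4 CPM in PP, then 125, 98.7 and 108 in DP, then 37.2, 35.8 and 39.3 in Neuron. The DP libraries were the highest and the Neuron libraries the lowest, without overlap. Slit2 rose 1.96-fold (log2 0.97 ± 0.09, adjusted p = 7.33e-06) and then fell 2.95-fold (log2 -1.56 ± 0.09, adjusted p = 2.58e-08), a difference of log2 -2.53 ± 0.15, adjusted p = 1.53e-07. Slit3 (chromosome 11, 34934726 to 35522009) had 1.29, 0.470 and 0.966 CPM in PP, then 3.08, 1.82 and 1.78 in DP, then 23.6, 28.4 and 24.2 in Neuron. It was low in both progenitor groups and far higher in every Neuron library than in any DP library. Slit3 rose 2.49-fold in the first step (log2 1.32 ± 0.31, adjusted p = 0.00517) and 11.4-fold in the second (log2 3.51 ± 0.26, adjusted p = 1.94e-07). The second change was the greater (log2 2.2 ± 0.49, adjusted p = 0.00336, and 2.79 without L223).

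Robo1 and Robo2, the main Slit receptors of cortical neurons, both rose in both steps. They lie 846.2 kb apart on chromosome 16. The sequences just before their start sites are shown as the stretches where their promoters would lie, beside those of Ntn4 and Ephb4, which fell in both steps. Each is 250 bases from RefSeq in GRCm38.p6, a later build than mm9, read 5′ to 3′ on the strand of the gene: chr16:72662899-72663148 (plus) for Robo1, chr16:74411826-74412075 (minus, the last of 3 listed starts) for Robo2, chr10:93640799-93641048 (plus) for Ntn4 and chr5:137349859-137350108 (plus) for Ephb4. None overlaps an annotated exon. Capitals mark the E-box motifs searched, CAGATG, its reverse complement CATCTG, and CAGCTG, on both strands, which bind basic helix-loop-helix factors.
Robo1: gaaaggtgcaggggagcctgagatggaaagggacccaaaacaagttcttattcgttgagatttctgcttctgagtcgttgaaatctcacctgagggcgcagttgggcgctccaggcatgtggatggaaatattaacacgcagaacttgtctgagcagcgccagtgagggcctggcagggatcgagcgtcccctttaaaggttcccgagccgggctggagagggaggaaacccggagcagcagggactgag
Robo2: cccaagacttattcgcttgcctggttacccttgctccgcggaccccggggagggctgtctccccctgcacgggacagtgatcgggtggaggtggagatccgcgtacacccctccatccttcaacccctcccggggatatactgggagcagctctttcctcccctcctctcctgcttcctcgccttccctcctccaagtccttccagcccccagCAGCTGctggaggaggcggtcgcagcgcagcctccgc
Ntn4: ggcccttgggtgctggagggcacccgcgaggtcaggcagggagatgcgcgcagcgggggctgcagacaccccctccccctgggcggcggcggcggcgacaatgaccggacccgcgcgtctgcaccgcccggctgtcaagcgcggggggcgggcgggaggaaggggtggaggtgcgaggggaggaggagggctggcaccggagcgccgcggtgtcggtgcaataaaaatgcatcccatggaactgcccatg
Ephb4: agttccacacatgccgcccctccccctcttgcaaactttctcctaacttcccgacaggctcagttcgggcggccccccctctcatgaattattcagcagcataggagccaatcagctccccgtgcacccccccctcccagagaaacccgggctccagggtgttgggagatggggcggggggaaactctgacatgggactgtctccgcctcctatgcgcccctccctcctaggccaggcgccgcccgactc
In these windows 1 motif was found, CAGCTG at position -37 from the Robo2 start shown. That start was picked for display because its window held a motif, and the windows of the other 2 listed Robo2 starts held none. The windows shown thus allow no comparison of motifs between rising and falling genes. CpG dinucleotides numbered 11 in Robo1, 14 in Robo2, 26 in Ntn4 and 12 in Ephb4. Windows were found for 32 of the 36 genes, and none was found under the symbols Dcc, Efnb3, Slit1 and Ntn1. Of 37 windows of members 7 held a motif (18.9%), against 8375 of 32841 windows of all genes (25.5%). Of the windows of members that rose in both steps 4 of 18 held one (22.2%), and of those that fell in both 2 of 6 (33.3%). Unlike the windows shown, some of those counted overlap annotated exons. Among the windows with a motif, those of the rising genes Epha10 and Ntng2 lie wholly in exons. That of Efna3, which rose, has 26 bases in exons, and that of Ephb3, which fell, has 40.

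Robo1 (chromosome 16, 72663394 to 73046340) had 28.2, 23.0 and 17.0 CPM in PP, then 41.4, 44.6 and 32.9 in DP, then 479, 424 and 350.0 in Neuron. The Neuron libraries stood far above the rest, and PP and DP lay close together without overlap. Robo1 rose 1.75-fold in the first step (log2 0.81 ± 0.18, adjusted p = 0.00348) and 10.5-fold in the second (log2 3.40 ± 0.19, adjusted p = 1.46e-08), and the second change was the greater (log2 2.59 ± 0.32, adjusted p = 4.01e-05). Robo2 (chromosome 16, 73892551 to 74412070) had 43.8, 27.0 and 20.7 CPM in PP, then 145, 208 and 154 in DP, then 647, 503 and 436 in Neuron. All 3 groups were apart, with the DP libraries well above PP already. Robo2 rose 5.56-fold in the first step (log2 2.47 ± 0.25, adjusted p = 1.59e-05) and 3.13-fold in the second (log2 1.65 ± 0.24, adjusted p = 8.05e-05). The difference between its steps was log2 -0.83 ± 0.41, adjusted p = 0.122. It was called with libraries of consecutive numbers paired (-0.91, adjusted p = 0.0452) and without L222 (-1.18, adjusted p = 0.00832).

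Robo3, a receptor of commissural axons that in mammals does not bind Slits well, (chromosome 9, 37223254 to 37240760) had 15.8, 11.9 and 24.1 CPM in PP, then 22.9, 10.4 and 24.2 in DP, then 12.2, 8.03 and 7.47 in Neuron. Libraries of 1 group differed widely in PP and DP, and the groups overlapped. Its second-step fall (log2 -1.05 ± 0.33, adjusted p = 0.0142) lost its call without L223, L394, L357 or L395 (adjusted p from 0.0513 to 0.0566). From PP to Neuron the change was log2 -0.91 ± 0.33, adjusted p = 0.0262, and -0.57 (adjusted p = 0.138) without L393, with the call also lost without L357 or L395 (0.0838 and 0.0916). Its first-step change was log2 0.15 ± 0.32, adjusted p = 0.75, and the difference between its steps (log2 -1.20 ± 0.55, adjusted p = 0.099) was called with libraries paired (-1.09, adjusted p = 0.042), without L393 (-1.53, 0.033) and without L356 (-1.81, 0.00915).

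Ntn1 and Ntn4, the 2 secreted netrins among the 36 genes, were lowest in Neuron, unlike their relative Ntn3, described below. Ntn4, a netrin of basement membranes, (chromosome 10, 93103426 to 93209952) had 85.6, 74.4 and 59.1 CPM in PP, then 33.1, 34.0 and 27.9 in DP, then 5.29, 4.75 and 4.48 in Neuron. The groups were apart at each step. Ntn4 fell 2.31-fold in the first step (log2 -1.21 ± 0.13, adjusted p = 2.21e-05) and 6.53-fold in the second (log2 -2.71 ± 0.14, adjusted p = 1.2e-08), the second fall being the greater (log2 -1.50 ± 0.22, adjusted p = 0.000197). All 8 endothelial markers, all 6 pericyte markers and the 4 meningeal markers that could be tested (of 7) also fell from PP to Neuron. So did all 8 radial glia markers. In L222, L355 and L393 the sums were 6319, 6136 and 5403 CPM for radial glia and 9.45, 13.3 and 28.2 for endothelial cells. They were 32.4, 47.9 and 59.6 for pericytes, and 13.5, 24.3 and 94.3 for meningeal fibroblasts. The part of these cells in Ntn4 was not tested. Ntn1, the attractant of commissural axons, (chromosome 11, 68022866 to 68214325) had 33.5, 17.6 and 10.1 CPM in PP, then 17.4, 21.0 and 13.3 in DP, then 3.54, 1.83 and 1.11 in Neuron. The PP libraries spread widely and enclosed the DP libraries, and Neuron was below both. Ntn1 fell 7.96-fold in the second step (log2 -2.99 ± 0.46, adjusted p = 0.000109), and its first-step change was log2 -0.24 ± 0.39, adjusted p = 0.67. L222, the highest PP library for Ntn1, was also the highest PP library for interneuron and choroid plexus and hem markers (52.2 and 60.0 CPM), and their part was not tested.

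The 2 netrin-G genes moved in opposite directions in the first step. Ntng2, the ligand partner of Lrrc4, (chromosome 2, 29050061 to 29108525) had 12.5, 8.20 and 7.11 CPM in PP, then 81.0, 125 and 112 in DP, then 328, 308 and 322 in Neuron. The groups were far apart at each step. Ntng2 rose 11.5-fold in the first step (log2 3.52 ± 0.20, adjusted p = 3.83e-07), the highest first-step change among the 36 genes, and 3.01-fold in the second (log2 1.59 ± 0.18, adjusted p = 9.69e-06). The second change was the smaller (log2 -1.93 ± 0.31, adjusted p = 0.000319, and -2.55 without L222, L223 and L224). Another gene on the same strand, 6530402F18Rik, covers 14.052% of its exon length. Ntng1, the partner of Lrrc4c and known from thalamic axons, fell from 3.94 ± 0.5 to 0.946 ± 0.222 CPM in the first step (log2 -2.06 ± 0.20, adjusted p = 1.12e-05) and was at 0.871 ± 0.0649 in Neuron (log2 -0.11 ± 0.22, adjusted p = 0.661).

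All 4 netrin receptors rose in both steps. Dcc, the attractive receptor, (chromosome 18, 71418392 to 72510723) had 22.0, 17.9 and 13.8 CPM in PP, then 197, 235 and 170.3 in DP, then 492, 377 and 362 in Neuron. The DP libraries were already far above the PP libraries, and Neuron lay above DP without overlap. Dcc rose 11.2-fold in the first step (log2 3.49 ± 0.19, adjusted p = 2.95e-07) and 2.04-fold in the second (log2 1.03 ± 0.17, adjusted p = 0.000185), and the second change was the smaller (log2 -2.46 ± 0.28, adjusted p = 2.45e-05). Unc5a, a repulsive receptor, (chromosome 13, 55050772 to 55107379) had 6.01, 4.93 and 4.54 CPM in PP, then 29.5, 39.8 and 37.2 in DP, then 104, 112 and 117 in Neuron. It climbed at each step without overlap, 6.91-fold (log2 2.79 ± 0.13, adjusted p = 1.73e-07) and 3.13-fold (log2 1.65 ± 0.12, adjusted p = 1.57e-07), again more in the first (log2 -1.14 ± 0.21, adjusted p = 0.000764).

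Unc5b (chromosome 10, 60225358 to 60294329) had 5.75, 7.35 and 10.1 CPM in PP, then 11.7, 11.7 and 12.3 in DP, then 19.7, 23.1 and 21.2 in Neuron. The PP libraries were the most uneven, and the groups did not overlap. Unc5b rose 1.53-fold in the first step (log2 0.62 ± 0.16, adjusted p = 0.0104) and 1.79-fold in the second (log2 0.84 ± 0.16, adjusted p = 0.000573). Unc5c (chromosome 3, 141128528 to 141497888) had 0.779, 0.662 and 0.452 CPM in PP, then 1.86, 2.27 and 2.73 in DP, then 9.32, 11.9 and 10.5 in Neuron. It was the netrin receptor with the lowest level per kilobase in PP and separated the groups at each step, with rises of 3.65-fold (log2 1.87 ± 0.23, adjusted p = 5.73e-05) and 4.62-fold (log2 2.21 ± 0.19, adjusted p = 7.76e-07). For Unc5b and Unc5c the difference between the steps was log2 0.23 ± 0.28, adjusted p = 0.552 and log2 0.34 ± 0.36, adjusted p = 0.483.

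Levels of different genes were compared per kilobase of exon length. In PP, Efnb1 stood first at 203 ± 2.73 CPM per kb (mean ± SD, n = 3), Efnb2 followed at 112 ± 9.29 and Epha4 at 92.7 ± 3.52, with no overlap between these neighbours or with the next gene. Ephb2, Epha5 and Ntn4 came after them at 22.1 ± 0.316, 20.7 ± 1.39 and 19.5 ± 3.55, and each overlapped its neighbour in the order. In DP, Efnb1 (122 ± 13.7), Epha4 (107 ± 4.44), Efnb2 (83.4 ± 6.79) and Epha3 (49.0 ± 7.28) led, all apart, and Ntng2, Ephb2 and Dcc overlapped behind them at 26.7 ± 5.66, 25.4 ± 2.28 and 24.9 ± 4.01. In Neuron, Efnb2 (167.2 ± 15.8) and Ntng2 (80.4 ± 2.67) led and were apart. Epha3, Epha4, Efnb1, Dcc, Epha5, Efnb3, Slit1, Robo1, Robo2 and Ephb2 followed, from 57.4 ± 8.50 to 31.5 ± 1.81, each overlapping the next. Ntng2 thus moved from rank 21 of 36 in PP to rank 2 in Neuron, and Dcc from rank 22 to rank 6.

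Summed per kilobase over each role, the receptors and ligands differed in course. EphA receptors summed to 131 ± 5.94 in PP, 184 ± 12.2 in DP, and 173 ± 20.3 in Neuron. EphB receptors summed to 54.8 ± 1.23 in PP, 70.5 ± 2.60 in DP, and 78.3 ± 3.23 in Neuron. Both sums were higher in every DP library than in any PP library, and DP and Neuron overlapped for EphA. Ephrin-A ligands summed to 29.2 ± 0.864 in PP, 40.2 ± 1.95 in DP, and 67.1 ± 4.79 in Neuron. Ephrin-B ligands summed to 329.7 ± 8.40 in PP, 220.5 ± 15.2 in DP, and 268 ± 18.9 in Neuron, lowest in DP. Within the ephrin-B sum, Efnb1 held 61.7% in PP, 55.3% in DP and 20.1% in Neuron, and Efnb2 34.0%, 37.9% and 62.4%. The larger ligand of the sum thus differed between progenitors and Neuron. Within the ephrin-A sum, Efna3 held 2.06%, 7.20% and 40.9%. Within the EphA sum, Epha4 held 70.6%, 58.2% and 32.6%, and Epha3 8.39%, 26.6% and 33.1%.

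Slit ligands summed to 8.75 ± 1.86 in PP, 24.9 ± 0.957 in DP, and 51.8 ± 1.07 in Neuron, and Robo receptors to 6.77 ± 1.08 in PP, 17.2 ± 1.37 in DP, and 77.1 ± 13.5 in Neuron. The netrins Ntn1 and Ntn4 summed to 22.8 ± 5.40 in PP, 11.2 ± 1.47 in DP, and 1.64 ± 0.309 in Neuron, and netrin receptors to 4.83 ± 0.347 in PP, 35.6 ± 4.57 in DP, and 82.0 ± 7.02 in Neuron. The sum of Ntn1 and Ntn4 was thus highest in the group where the sum of Dcc, Unc5a, Unc5b and Unc5c was lowest. The ligand sum leaves out Ntn3, which is not among the 36 genes and stood at 1.25 ± 0.143, 1.03 ± 0.0481 and 6.15 ± 0.259 CPM per kb. The receptor sum leaves out Neo1, Unc5d and Dscam, also not among the 36 genes. Neo1, a relative of Dcc, stood at 23.6, 29.0 and 80.5 CPM per kb on average in PP, DP and Neuron. Unc5d stood at 1.18, 10.7 and 17.3, and Dscam at 0.250, 1.59 and 27.9. Netrin RNA and netrin receptor RNA as a whole were therefore not compared. Netrin-G genes summed to 3.23 ± 0.831 in PP, 26.9 ± 5.61 in DP, and 80.6 ± 2.66 in Neuron. Within the Slit sum Slit2 held 44.2% in PP, 29.4% in DP and 4.80% in Neuron, and Slit1 54.1%, 69.2% and 87.1%. Within the Robo sum the share of Robo3 was 37.9%, 16.9% and 1.75%, that of Robo2 26.9%, 59.1% and 41.4%, and that of Robo1 35.3%, 24.1% and 56.9%. Ntng2 made up 71.7%, 99.1% and 99.8% of the netrin-G sum. These sums and shares are descriptions and were not tested.

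**Figure D3:**
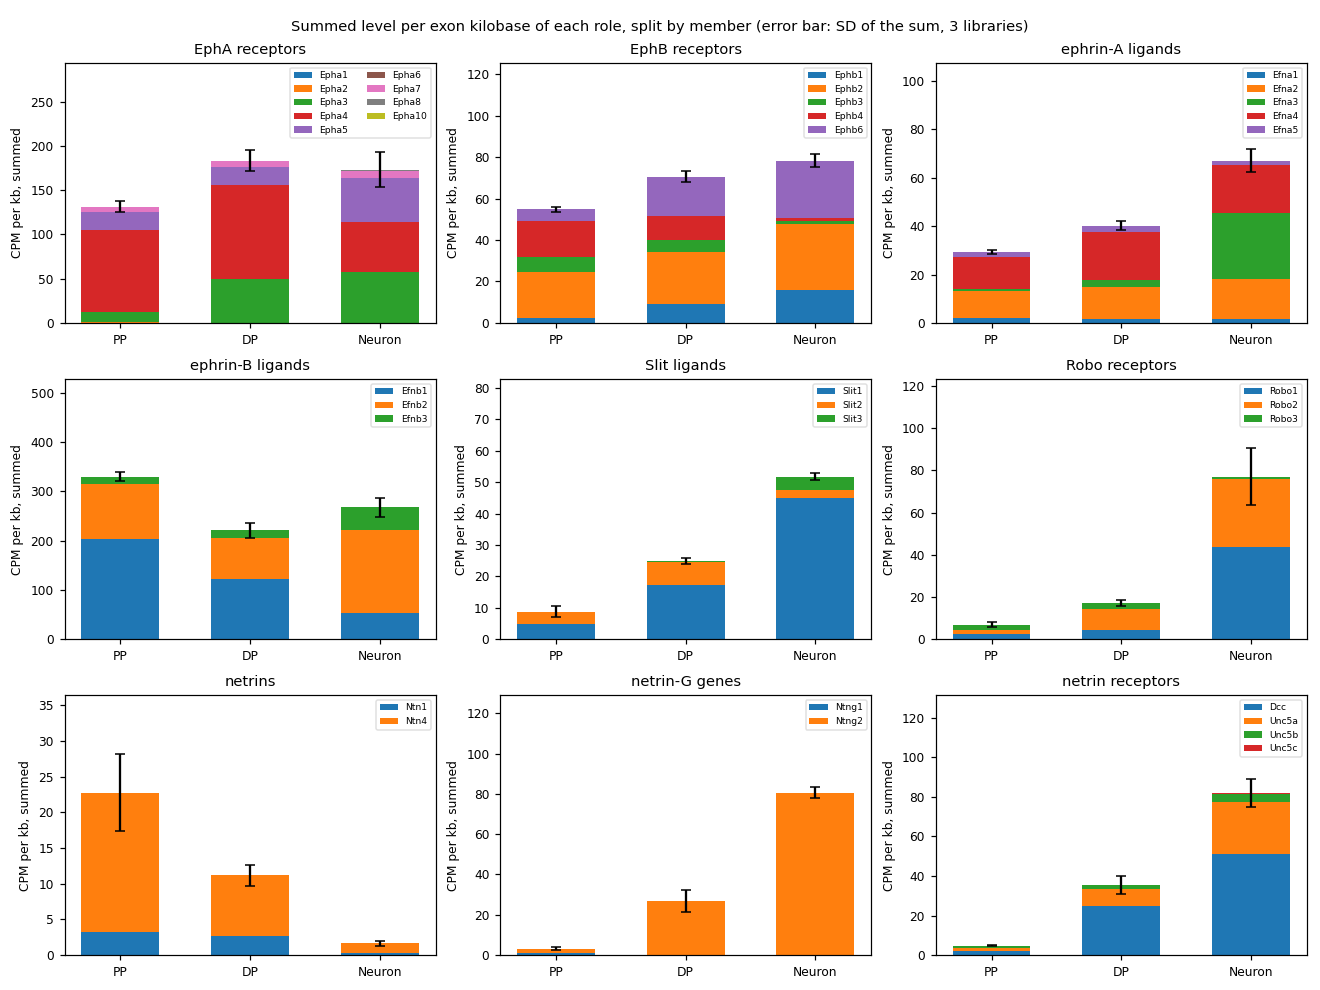
CPM per kb of exon length summed over the genes of each role in PP, DP and Neuron, 1 panel per role, as stacked bars of the mean level of each gene over 3 libraries, with error bars for the SD of the sum. The ephrin-B panel changes from mostly Efnb1 to mostly Efnb2. The netrin panel (Ntn1 and Ntn4) falls while the netrin receptor panel (Dcc, Unc5a, Unc5b and Unc5c) rises.

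Genes that lie near each other did not always move alike. Ephb2 and Epha8 lie 93.4 kb apart on chromosome 4, with second-step log2 changes of 0.31 and 4.14. Ephb6 and Epha1 lie 738.0 kb apart on chromosome 6 and changed in opposite directions in each step. Distances are in mm9.

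The summed markers of blood, pericytes and meningeal cells were highest in PP, and the endothelial sums of PP and DP overlapped. Summed levels in PP, DP and Neuron were 9.45 to 28.2, 9.49 to 11.4 and 3.05 to 5.59 CPM for 8 endothelial markers, and 32.4 to 59.6, 8.73 to 13.6 and 2.70 to 3.19 for 6 pericyte markers. For 5 microglial markers they were 7.60 to 9.40, 4.80 to 5.17 and 1.50 to 2.44, and for 7 meningeal markers 13.5 to 94.3, 3.72 to 8.97 and 0.691 to 1.65, with Foxd1 at 0 in Neuron. For 7 red blood cell genes the sums were 8359 to 15287, 17.4 to 118 and 9.04 to 13.5. For 4 oligodendrocyte precursor markers they were 6.55 to 9.64, 7.04 to 12.5 and 0.630 to 0.927, with Sox10 at 0 in Neuron. The 6 choroid plexus and hem markers summed to 21.9 to 60.0, 59.5 to 109.4 and 55.5 to 66.9. The members that fell in both steps were Epha1, Epha2, Ephb3, Ephb4, Efnb1 and Ntn4. They thus fell along with the pericyte, microglial, meningeal and red blood cell sums, and also with the radial glia sum. That last sum was 5403 to 6319 CPM in PP, 2494 to 3625 in DP and 298 to 380 in Neuron. Single markers did not all follow the sums. In the first step 6 of 6 pericyte, 7 of 7 red blood cell and 7 of 8 radial glia markers fell. Of the 4 microglial and 4 meningeal markers tested, 1 and 3 fell there, and 1 meningeal marker rose. In the second step 3 of 6 pericyte, 6 of 7 red blood cell and 8 of 8 radial glia markers fell. Of those tested, 4 of 4 microglial and 2 of 4 meningeal markers fell there. The part of any of these cells was not tested.

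A set of 70 partner genes of these pathways was followed as 4 lists, and 69 passed the filter. In the first step 35 rose and 13 fell, in the second 49 rose and 11 fell, and from PP to Neuron 52 rose and 12 fell. Their median log2 changes were 0.22, 0.58 and 1.05. Of 28 genes of Eph and ephrin signalling, 12 rose and 2 fell in the first step and 19 rose and 6 fell in the second. Of 15 genes of Slit and Robo signalling these counts were 9 and 2, then 11 and 2. Of 18 genes of netrin signalling and netrin-G ligands they were 9 and 7, then 13 and 2. Of 9 relatives of the members, 8 were tested, of which 5 rose and 2 fell in the first step and 6 rose and 1 fell in the second. Over all features the shares higher and lower were 21.3% and 20.2% in the first step and 33.1% and 34.2% in the second. From PP to Neuron they were 36.7% and 38.6%. The median log2 change over all features was -0.0165 in the first step, -0.0411 in the second and -0.0419 from PP to Neuron.

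Among relatives of the members, Unc5d, a netrin receptor of the Unc5 family, rose from 10.6 ± 3.95 to 95.5 ± 28.8 CPM in the first step (log2 3.19 ± 0.28, adjusted p = 5.28e-06) and to 154.6 ± 27.9 in the second (log2 0.69 ± 0.25, adjusted p = 0.0283). Dscam, an adhesion molecule and netrin receptor, rose from 1.87 ± 0.930 to 11.9 ± 3.12 (log2 2.72 ± 0.27, adjusted p = 1.32e-05) and 209 ± 21.8 (log2 4.13 ± 0.23, adjusted p = 1.89e-08). Both Dscam and Unc5d therefore rose in both steps here, while the second-step adjusted p of Unc5d was 0.066 in the authors' deposited table. Neo1, a relative of Dcc, rose in each step (log2 0.30 ± 0.07, adjusted p = 0.00609 and log2 1.47 ± 0.07, adjusted p = 6.16e-09), and so did Dscaml1 (log2 1.16 ± 0.19, adjusted p = 0.000579 and log2 0.87 ± 0.19, adjusted p = 0.00155). Rgma, a ligand of Neo1, fell in each step (log2 -0.76 ± 0.16, adjusted p = 0.00241 and log2 -1.69 ± 0.16, adjusted p = 2.04e-06), while its relative Rgmb rose in each (log2 1.18 ± 0.09, adjusted p = 2.01e-06 and log2 0.98 ± 0.09, adjusted p = 1.47e-06). Ntn3, a further netrin, changed by log2 -0.27 ± 0.11, adjusted p = 0.0571 in the first step and rose from 5.05 ± 0.235 to 30.1 ± 1.27 CPM in the second (log2 2.58 ± 0.10, adjusted p = 1.34e-09). Its course was thus the opposite of that of Ntn1 and Ntn4 in the second step. Robo4, the Robo of blood vessels, had 0.643 ± 0.426 CPM in PP and fell in the first step (log2 -1.92 ± 0.53, adjusted p = 0.0127), with log2 -1.26 ± 0.76, adjusted p = 0.164 in the second. Ntn5 had 0 to 3 reads in a library and was not tested.

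Of the signalling partners, Trim9, a ubiquitin ligase that binds Dcc, was among the highest in the first step (log2 2.24 ± 0.14, adjusted p = 5.95e-07). Trim67, its relative, had the highest second-step change, from 10.8 ± 0.536 to 459 ± 39.6 CPM (log2 5.42 ± 0.17, adjusted p = 2.67e-10). Ablim1, an actin-binding protein, fell in the first step and rose in the second (log2 -1.52 ± 0.15, adjusted p = 1.41e-05 and log2 2.57 ± 0.16, adjusted p = 3.52e-08). Lrrc4, the partner of Ntng2, did the same, from 9.87 ± 1.29 to 3.98 ± 0.480 and 53.0 ± 2.19 CPM (log2 -1.31 ± 0.12, adjusted p = 7.27e-06 and log2 3.73 ± 0.12, adjusted p = 3.36e-10). Ntng2 itself rose in both steps, so ligand and partner moved in opposite directions in the first. The lowest second-step changes were those of Dock1, an activator of Rac (log2 -4.32 ± 0.15, adjusted p = 4.31e-10), Nfatc4, a calcium-regulated transcription factor (log2 -4.28 ± 0.10, adjusted p = 5.5e-11), and Rgs3, a regulator of G proteins that acts below ephrin-Bs (log2 -3.48 ± 0.09, adjusted p = 6e-11). Rgs3 fell from 54.7 ± 3.51 to 4.88 ± 0.248 CPM, and Dock1 from 70.1 ± 12.4 to 3.50 ± 0.296.

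**Figure D4:**
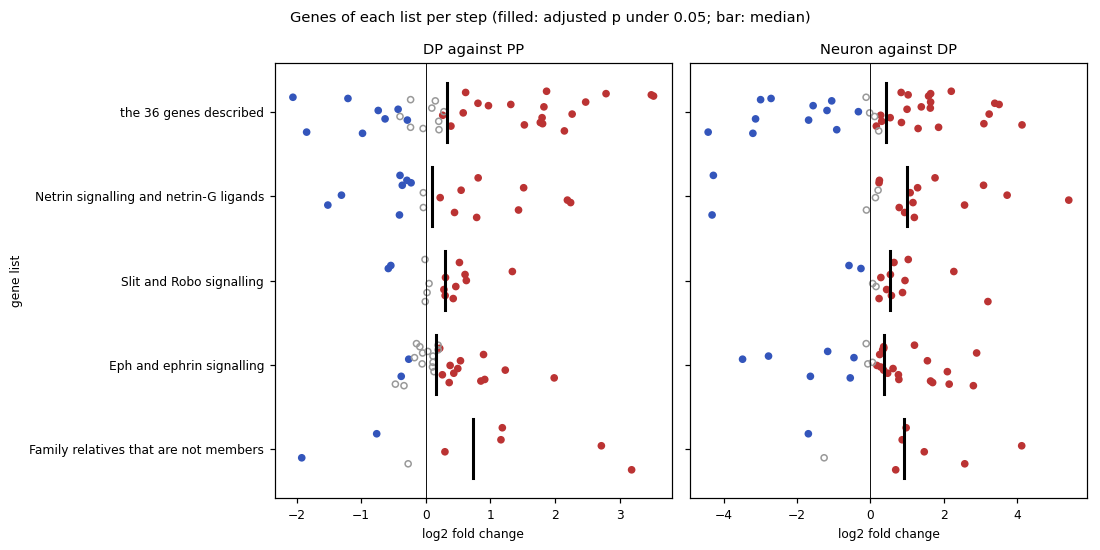
Log2 fold changes in the first and the second step of the 69 partner genes tested, in 4 lists, and of the 36 genes described, 1 point per gene and a bar at each list's median. Filled points have an adjusted p below 0.05 by edgeR (red higher, blue lower) and open points do not. Among the partners Trim67 and Dscam lie highest in the second step, and Dock1, Nfatc4 and Rgs3 lowest.

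The authors' deposited table of their own comparisons gave the same call and direction for 26 of the 27 members called here in the first step and for 31 of the 32 called in the second. Epha10 in the first step and Efna5 in the second were called here only, with adjusted p-values of 0.0525 and 0.068 in the authors' deposited table.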

How the data were processed

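The authors deposited whole-number counts per run, per the file headers, for 37620 genes of Ensembl release 67 and for 630 transcripts without annotation. Per the submitters' processing notes, which give no role or order, the build was mm9 and the tools included featureCounts 1.4.4, DESeq2 1.4.5 and TopHat2 2.0.10. The deposited comparison tables hold the authors' log2 fold changes, p-values and, as a score per gene, standard errors and test statistics. They also hold a normalised signal per library, deposited by the authors, in which 319212 of 319212 values equalled the summed counts divided by a size factor within 0.06. No strand setting for counting stands in the sources used here.

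The counts of both runs of a library were added here. Columns carry library numbers that no label gives, so each was tied to a group only. Tests used edgeR 4.0.16 in R 4.3.3 with TMM scaling, filterByExpr and a quasi-likelihood test fitted to the 9 libraries, the only term being the group, Benjamini-Hochberg adjustment over 18627 features and a threshold of 0.05. Standard errors are the log2 change over the square root of the F statistic, and folds are fitted values. The test was checked on counts simulated with the same spread setting for every gene and with independent libraries. That check therefore does not cover libraries that deviate together. Replicates are stated to be biological, and p-values thus weigh the difference between groups against the spread between libraries from pools of embryos. With the group as the only term, this spread includes the joint deviations of libraries given below. Chi-square per degree of freedom between libraries of a group was 7.92 to 29.09, so none agreed within sampling noise. Libraries with consecutive numbers in the column headers deviated together: 9 pairs within such sets had correlations of 0.187 to 0.462 and 18 pairs across sets -0.427 to 0.051. They were treated as paired in an alternative fit. Other alternatives were RLE and upper-quartile scaling, DESeq2 1.42.0, other filters, each run alone, 2 groups alone, identifiers added, and libraries left out.

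Members, gene lists and tests were chosen with earlier results of these data known. A member was given in every library when it was past the threshold in a comparison at 2-fold or more with at least 5 CPM in its highest group (24 genes), and the other 12 by mean and SD. Partner genes were named when they were relatives of members, or among the 3 highest or lowest changes of a step at 5 CPM or more with no overlap between libraries. Symbols with several identifiers (Efna5, Ntng1, Abl1 and Flrt3) were taken as the one with most reads. A further 12 columns of per-sample values were not used.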

Additional observations from a re-analysis of the deposited data

How the results depend on the processing

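Over 20 other settings, 123 of 144 values of single genes kept their call wherever they were recomputed. The values are those of 36 genes in 3 comparisons and the difference between steps. Of 2831 recomputed values 79 lost a call, 14 gained one and 0 reversed. Direction was compared only where a value was called in either fit. Members called higher numbered 17 to 20 in the first step when a library was left out, 19 to 21 in the second and 23 from PP to Neuron, and members called lower 6 to 8, 9 to 11 and 10 to 11. In a fit with a replicate block that pairs libraries of consecutive numbers, 20 members rose and 8 fell in the first step, 21 and 11 in the second and 23 and 11 from PP to Neuron. Over all 18627 features the block gave 4794 higher and 4736 lower in the first step, 6708 and 6912 in the second and 7301 and 7637 from PP to Neuron. The block changed the calls of Ephb2 in the first step and of the difference between steps for Robo2 and Robo3, as given above, and no other call of a member. Partner genes with this block were 37 higher and 15 lower in the first step. Upper-quartile scaling moved the median log2 change of all features from PP to Neuron from -0.0419 to -0.1632, with 6139 higher and 8045 lower in place of 6839 and 7196, and 3464 higher and 4380 lower in the first step in place of 3960 and 3754. Under that scaling the calls of Epha7 in the second step and Efna2 in the first were lost. Depth limits Epha1, Epha2, Epha8 and Epha10, which had few reads in at least 1 group. Identifiers of near-identical or overlapping genes may share or lose reads, and how counting treated such reads was not tested. This limits the levels per kilobase of genes such as Efna5, Efna3 and Ntng2. Of their exon length 59.921%, 14.133% and 14.052% lies under another identifier.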
